A study of Mus musculus with 12 samples.

Results

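tRNA fragments of NSun2 knockout livers after repeated CCl4 injury (NS-KO D27) were set against those of wild type livers after the same injury (WT D27). All fragments were taken by subtype, isodecoder, position on the tRNA and length, and each distinct read sequence was counted once. The comparison rests on 4 of the 12 libraries of the study, 2 for each genotype, which held 36068 of its 87699 distinct sequences. The NS-KO mice carried a CRISPR/Cas9 deletion in NSun2 in every tissue, and the WT mice carried the intact gene. Both were male B6D2F1/Crl mice of 8 to 12 weeks, and both were injected with CCl4, a solvent that poisons liver cells once they metabolise it (40% in corn oil, 2 mL/kg body weight). The injections were repeated, and whole livers without gall bladder were taken on day 27. The study also holds both genotypes after corn oil alone (D0) and on day 3 after a single injection (D3). The libraries of each group are described in the methods as independent biological replicates and counted as mice. mRNA was not sequenced, so neither the loss of NSun2 nor the liver identity of the samples could be checked in these reads.

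NSUN2 is an RNA methyltransferase that places 5-methylcytosine in the variable region of many tRNAs and at the anticodon of Leu-CAA. tRNAs without this mark are known to be cut more readily by angiogenin, a ribonuclease that opens the anticodon loop. DNMT2 methylates a different cytosine, beside the anticodon of Asp-GTC, Gly-GCC, Val-AAC and Val-CAC. Fragments of the 5′ side of a mature tRNA were listed as tRF-5a (14 to 16 nt), tRF-5b (22 to 24 nt), tRF-5c (28 to 32 nt) or tiRNA-5 (20 to 36 nt, ending near the anticodon). Fragments of the 3′ side were listed as tRF-3a (17 to 18 nt) or tRF-3b (19 to 22 nt). A tRF-1 comes from the trailer that is cut off a precursor tRNA, and it typically ends in the run of T at which RNA polymerase III stops. A tiRNA-3 is a longer fragment of the 3′ side, and a tRF-2 is a short internal one. Everything else was listed as Other, which held 75799 of the 87699 sequences, 7329 of them beginning at base 1 of the tRNA.

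The following fragments carry the differences described here, each written 5′ to 3′ as DNA letters. In the 5′ fragments of nuclear tRNAs the capital is the last base, since the place where the fragment ends is what was compared, and in the mismatched 31-mer that last base does not match the tRNA.
tRF-5c of Gly-CCC/Gly-GCC, 31 nt: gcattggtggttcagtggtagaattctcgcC
the same with a mismatched last base: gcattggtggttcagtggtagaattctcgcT
tRF-5c of Gly-CCC/Gly-GCC, 30 nt: gcattggtggttcagtggtagaattctcgC
tRF-5c of Val-AAC/Val-CAC, 32 nt: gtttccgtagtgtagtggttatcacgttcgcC
tRF-5b of Val-AAC/Val-CAC, 23 nt: gtttccgtagtgtagtggttatC
tRF-5b of Leu-CAA/Leu-CAG, 24 nt: gtcaggatggccgagtggtctaaG
In the 2 fragments of the mitochondrial serine tRNA the capitals mark the anticodon.
5′ fragment of mt-Ser-GCT, 22 nt: aagaaagattgcaagaactGCT
5′ fragment of mt-Ser-GCT, 32 nt: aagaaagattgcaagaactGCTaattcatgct
In the tRF-1s the capitals mark the final run of T, and in the 3′ fragments the CCA that is added to a finished tRNA.
tRF-1 of initiator Met-CAT, 16 nt: tcggaggctttgTTTT
tRF-1 of Ile-AAT, 14 nt: gtggtagattcTTT
tRF-1 of Gln-CTG (tRF-Gln-CTG-026), 18 nt: ttggtgtcaggctagTTT
tRF-3b of Arg-ACG, 22 nt: tcgactcctggctggctcgCCA
tRF-3a of Ala-CGC/Ala-TGC, 18 nt: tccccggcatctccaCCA
The last is the main fragment of the mt-Val-TAC precursor, which lies past the tRNA.
mt-Val-TAC trailer, 21 nt: actaatcctagccctagccct

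The first glycine tRNA gene that these reads match is chr3:96311254-96311324, and the first valine gene is chr3:30601270-30601342. The precursor of the initiator methionine fragment, with its flanks, is chr3:90475820-90475971, and mt-Ser-GCT is chrMT:11613-11671. Of the 439 nuclear precursor genes in the table, 370 have exactly the coordinates of a RefSeq tRNA gene in GRCm38.p6. Most 5′ fragments match several genes alike, as the Gly 31-mer does on chromosomes 1, 2, 3, 8, 11 and 13, so reads cannot be assigned to 1 gene copy.

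The NS-KO libraries held 46973 and 57514 reads that matched a tRNA, and the WT libraries held 156602 and 275568. The table holds whole-number reads, and levels are given as CPM, counts per 1000000 of these reads. A single read was worth 21.3 and 17.4 CPM in NS-KO D27, against 6.39 and 3.63 CPM in WT D27. The reads were less concentrated in NS-KO D27, where the 10 most abundant sequences took 19.2% and 15.9% of reads, against 39.1% and 46.8% in WT D27. The number of expressed fragments was compared again at equal depth, and the part of read depth in the other differences below was not tested. These are whole livers, so fewer cells of a type and less RNA per cell cannot be told apart. With 2 libraries against 2, an exact two-sided permutation test cannot give a p under 0.333, and every share, length and number of fragments tested this way below has this p, other than the 2 for which p = 0.667 is given.

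The main class of WT fragments, tRF-5c, was lower in NS-KO D27. It made up 24.8% and 14.9% of reads in NS-KO D27, against 60.9% and 69.6% in WT D27. Both NS-KO libraries lay far below both WT libraries. The means were 19.8% ± 6.98 in NS-KO D27 and 65.2% ± 6.16 in WT D27 (SD, n = 2 each; exact permutation test, p = 0.333), a difference of −45.4 percentage points. Among nuclear reads alone, tRF-5c took 38.2% and 22.7% in NS-KO D27, against 73.0% and 76.2% in WT D27. Reads of type Other took the larger place in NS-KO D27, with 63.1% and 71.1% of reads, against 31.2% and 25.04% in WT D27. They came from both genomes. Nuclear Other reads made up 28.7% and 37.6% in NS-KO D27 and 15.1% and 16.7% in WT D27, and mitochondrial Other reads 34.4% and 33.5% in NS-KO D27 and 16.1% and 8.37% in WT D27.

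The short classes were small and each was higher in share in both NS-KO libraries. tRF-1s made up 5.13% and 5.85% of reads in NS-KO D27, against 2.69% and 1.12% in WT D27. tRF-5b made up 0.647% and 0.946% in NS-KO D27, against 0.181% and 0.122% in WT D27. tRF-3b made up 0.918% and 1.02% in NS-KO D27, against 0.409% and 0.177% in WT D27. The share of tiRNA-5, 1.85% and 1.98% in NS-KO D27 and 1.98% and 2.61% in WT D27, hardly separated the groups. These shares sum to the whole, so a lower tRF-5c share raises all others. With tRF-5c reads left out, the tRF-1 share was 6.82% and 6.87% in NS-KO D27, against 6.86% and 3.68% in WT D27. Mitochondrial reads made up 47.1% and 40.8% of them in NS-KO D27, against 42.6% and 28.7% in WT D27. On that base the groups overlapped for both classes (exact permutation test, p = 0.667, n = 2 each).

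**Figure D1:**
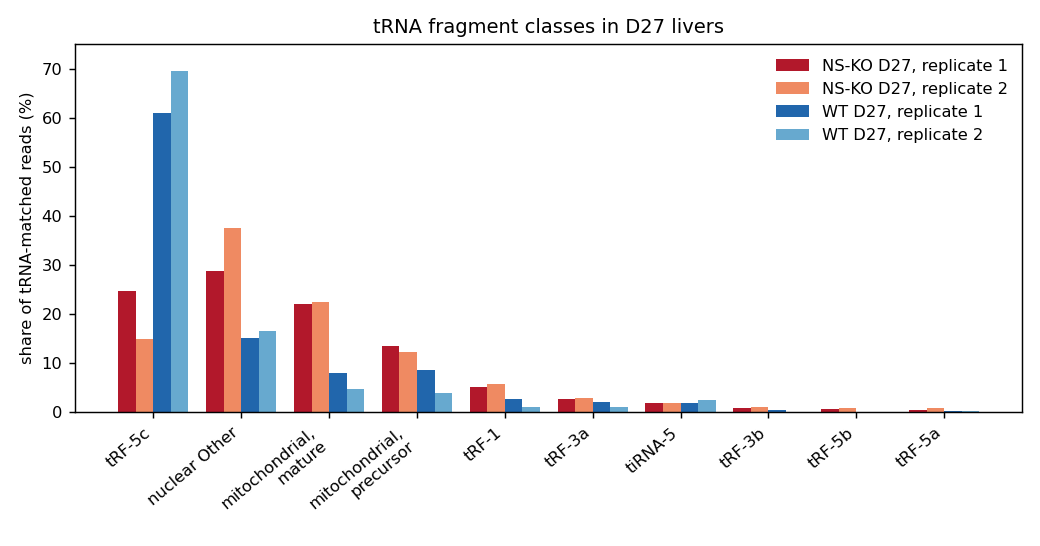
Share of tRNA-matched reads in percent for each fragment class, 1 bar per library, with the NS-KO D27 libraries in red tones left of the WT D27 libraries in blue tones. Named subtypes hold reads of both genomes, so they overlap in part with the 2 mitochondrial classes. tRF-5c stands at 24.8% and 14.9% in NS-KO D27 and at 60.9% and 69.6% in WT D27, and the other tall classes are higher in NS-KO D27.

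On the tRNA itself, nuclear reads lay less often at the 5′ end and more often inside in NS-KO D27. These are shares of all reads, so a lower tRF-5c share moves them too. Nuclear reads that began at base 1 made up 33.5% and 25.8% of all reads in NS-KO D27, against 67.9% and 82.6% in WT D27. Nuclear reads with neither end of the mature tRNA made up 15.6% and 22.1% in NS-KO D27, against 7.38% and 4.65% in WT D27. Mitochondrial reads that began at base 1 went the other way, with 16.3% and 16.0% in NS-KO D27, against 5.54% and 3.32% in WT D27. Internal mitochondrial reads made up 4.35% and 5.24% in NS-KO D27, against 1.88% and 1.18% in WT D27. Reads of nuclear precursors, from leaders, trailers and junctions, made up 9.90% and 10.7% in NS-KO D27, against 4.72% and 2.26% in WT D27. By amino acid, nuclear glycine tRNAs gave 17.3% and 14.95% of reads in NS-KO D27, against 47.0% and 59.1% in WT D27. Histidine tRNAs gave 3.46% and 3.67% in NS-KO D27, against 1.43% and 1.20% in WT D27. Of the 9 nuclear amino acids compared, 3 had a lower mean share in NS-KO D27, glycine by −36.9 percentage points, glutamate by −4.65 and valine by −1.01, and the other 6 had a higher one.

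Reads were shorter in NS-KO D27. The mean length was 26.0 and 24.8 nt in NS-KO D27, against 28.2 and 29.9 nt in WT D27, a difference of −3.68 nt. Reads of 30 to 32 nt made up 27.5% and 17.999% in NS-KO D27, against 57.9% and 66.8% in WT D27. Reads of 14 to 24 nt made up 46.7% and 54.8% in NS-KO D27, against 22.2% and 11.5% in WT D27. The length profile had a pair of peaks that differed, the 31-nt peak of the tRF-5c fragments and a 22-nt peak to which mt-Ser-GCT contributes. Reads of 22 nt made up 7.88% and 7.23% in NS-KO D27, against 2.17% and 1.20% in WT D27. Outside tRF-5c the mean length was 24.4 and 23.7 nt in NS-KO D27, against 24.7 and 27.8 nt in WT D27, so the gap to WT D27 replicate 1 was small there.

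**Figure D2:**
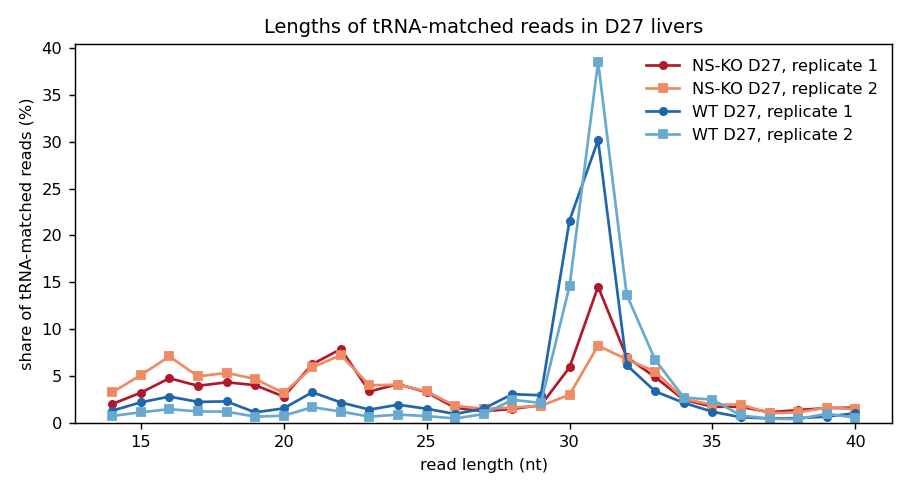
Share of tRNA-matched reads in percent (vertical axis) at each read length in nt (horizontal axis), 1 line per library. At 31 nt the NS-KO D27 libraries reach 14.5% and 8.24% and the WT D27 libraries 30.2% and 38.5%, and from 14 to 25 nt both NS-KO lines run above both WT lines.

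More different fragments reached the level the study counts as expressed, a CPM of at least 20, in NS-KO D27. Single libraries held 10659 and 4482 of them in NS-KO D27, against 2472 and 2070 in WT D27, a ratio of 3.33. NS-KO D27 replicate 1 passes this level with a single read, and without it the ratio was 1.97. With at least 2 reads required, the numbers were 3230 and 4482 in NS-KO D27, against 2472 and 2070 in WT D27. With all libraries thinned to 46973 reads and the same 2 reads required, they were 3230 and 3784 in NS-KO D27, against 2091 and 1660 in WT D27. With 35341 reads outside tRF-5c in each, they were 2873 and 3154 in NS-KO D27, against 2658 and 2369 in WT D27, a ratio of 1.20. In each of these counts both NS-KO libraries lay above both WT libraries.

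By mean CPM, 4608 fragments were expressed in NS-KO D27 and 2376 in WT D27. Of these, 2795 were expressed in NS-KO D27 alone, 1813 in both groups and 563 in WT D27 alone. Fewer reads reach 20 CPM in NS-KO D27 than in WT D27, and the part of read depth in this split was not tested. The fragments of NS-KO D27 alone were mostly Other (84.7%), with 27.8% from mitochondrial tRNAs and a median length of 22 nt. Over all 4608 fragments expressed in NS-KO D27 these values were 76.1%, 26.0% and 22 nt. The fragments of NS-KO D27 alone took 11.5% and 12.3% of reads in NS-KO D27, against 2.10% and 1.34% in WT D27. They were chosen by their CPM in these same libraries, so a larger share in NS-KO D27 follows from the choice. The fragments of WT D27 alone were mostly tRF-5c (58.3%), with a median length of 30 nt, against 29.8% and 29 nt over all 2376 expressed in WT D27.

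Reads were next summed by subtype and isodecoder, and 281 of 801 sums had enough reads to be tested with limma on log2 CPM in 1 fit to all 12 libraries. Adjusted p-values are Benjamini-Hochberg values over the 281 sums, and a change is called at an adjusted p under 0.05. In NS-KO D27, 12 sums were higher and 25 lower than in WT D27, 4.27% and 8.9% of those tested. At an unadjusted p under 0.05 there were 41 and 54. The scaling matters here. TMM, the scaling used, centres the bulk of the sums near 0 (median log2 fold change −0.05), while scaling by library size alone puts the median at 1.24, a shift of 1.29. By library size alone 116 sums were higher and 10 lower, 41.3% and 3.56%. Of the calls made with TMM, all 12 higher and 10 of the 25 lower were made in the same direction under both scalings. The 10 were all tRF-5c or tiRNA-5 sums, whereas 7 of the 25, among them all 5 tRF-3a sums, had a positive fold change by library size alone. Single libraries weigh heavily in the calls. Without WT D27 replicate 2, 0 sums were called (21 higher and 35 lower at an unadjusted p under 0.05), and without NS-KO D27 replicate 2, 7 were. A fit to the 4 D27 libraries alone, which has less information on the spread, called 0 (37 and 44).

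Glycine tRF-5c fell by the largest factors. For Gly-CCC/Gly-GCC the tRF-5c sum, the most abundant of all, stood at 123944 and 98967 CPM in NS-KO D27, against 383744 and 496415 CPM in WT D27. Its log2 fold change was −3.47 (SE 0.75, adjusted p = 0.017 from limma) with TMM and −1.98 by library size alone. The tRF-5c sum that matches Gly-GCC alone stood at 17138 and 13023 CPM in NS-KO D27, against 55121 and 61894 CPM in WT D27 (log2 fold change −3.45, SE 0.64, adjusted p = 0.011 from limma). Those of Gly-CCC alone (−3.41) and Gly-TCC (−3.50) fell too, the last on only 1 and 7 reads in NS-KO D27, against 47 and 97 in WT D27. In all of these the groups were well apart. Leaving out 1 library moved the log2 fold change of Gly-CCC/Gly-GCC to between −4.12 (without WT D27 replicate 1) and −2.81 (without WT D27 replicate 2, adjusted p = 0.13 from limma). That of Gly-CCC lay between −4.07 (without NS-KO D27 replicate 1) and −2.76 (without NS-KO D27 replicate 2, adjusted p = 0.083), and that of Gly-TCC between −4.23 (without NS-KO D27 replicate 2) and −2.78 (without NS-KO D27 replicate 1). Gly-GCC moved less, between −4.00 and −2.90. None of the 4 was called without WT D27 replicate 2, and only Gly-TCC was called without NS-KO D27 replicate 2.

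Glutamate and valine tRF-5c fell as well, with more spread between the NS-KO libraries. tRF-5c of Glu-CTC stood at 65846 and 16292 CPM in NS-KO D27, against 99756 and 85456 CPM in WT D27 (log2 fold change −2.98, SE 0.83, adjusted p = 0.044 from limma). This sum was not called with voom weights, a replicate block or no filter on low counts (adjusted p = 0.067, 0.074 and 0.060 from limma). tRF-5c of Val-AAC/Val-CAC stood at 16371 and 6277 CPM in NS-KO D27, against 27069 and 24611 CPM in WT D27 (log2 fold change −2.83, SE 0.60, adjusted p = 0.017 from limma). In both, NS-KO D27 replicate 1 lay nearer to WT than replicate 2. Without NS-KO D27 replicate 1 the log2 fold change of Glu-CTC was −4.13, and without NS-KO D27 replicate 2 it was −1.84 and no longer called (adjusted p = 0.22 from limma). For Val-AAC/Val-CAC these values were −3.66 and −2.004, the second not called (adjusted p = 0.10). tiRNA-5 of Glu-TTC stood at 4918 and 1408 CPM in NS-KO D27, against 10051 and 8691 CPM in WT D27 (log2 fold change −3.30, SE 0.81, adjusted p = 0.024 from limma). tRF-5c of Ala-CGC/Glu-CTC (−3.23), Val-AAC (−2.85) and Asp-GTC (−2.80) completed the 10 named sums that fell, the last on 1 and 6 reads in NS-KO D27, against 30 and 49 in WT D27. The Ala-CGC/Glu-CTC sum was not called with voom weights or a replicate block (adjusted p = 0.061 and 0.057 from limma). tiRNA-5 of Glu-TTC ranged from −4.33 without NS-KO D27 replicate 1 to −2.27 without NS-KO D27 replicate 2 (adjusted p = 0.15), and tRF-5c of Ala-CGC/Glu-CTC from −4.19 to −2.27 without the same libraries (adjusted p = 0.18 for the second). tRF-5c of Asp-GTC ranged from −3.44 without NS-KO D27 replicate 2 to −2.17 without NS-KO D27 replicate 1 (adjusted p = 0.093). All 10 were also called lower by library size alone, and 0 of the 10 were called without WT D27 replicate 2.

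Shorter 5′ fragments of valine and leucine tRNAs rose while the longer ones of the same valine tRNAs fell. tRF-5b of Val-AAC/Val-CAC stood at 3002 and 4121 CPM in NS-KO D27, against 581 and 392 CPM in WT D27 (log2 fold change 1.38, SE 0.33, adjusted p = 0.024 from limma). tRF-5b of Leu-CAA/Leu-CAG, which come from leucine tRNAs including the one NSUN2 methylates at its anticodon, stood at 447 and 556 CPM in NS-KO D27, against 63.9 and 43.5 CPM in WT D27 (log2 fold change 1.59, SE 0.35, adjusted p = 0.017 from limma). The leucine sum rests on 21 and 32 reads in NS-KO D27, against 10 and 12 in WT D27. Leaving out any 1 of the 4 libraries left neither sum called, with log2 fold changes of 1.20 to 1.55 for valine and 1.43 to 1.75 for leucine.

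Among trailers, tRF-1 of Ile-AAT stood at 1575 and 2173 CPM in NS-KO D27, against 402 and 123 CPM in WT D27 (log2 fold change 1.52, SE 0.28, adjusted p = 0.011 from limma). tRF-1 of Asp-GTC stood at 660 and 609 CPM in NS-KO D27, against 147 and 25.4 CPM in WT D27 (log2 fold change 1.71, SE 0.48, adjusted p = 0.045 from limma). Both rose, with the groups apart. The Asp-GTC value was 1.02 without WT D27 replicate 2 (adjusted p = 0.26) and 2.40 without WT D27 replicate 1, and neither sum was called without WT D27 replicate 2 or without NS-KO D27 replicate 2. The Ile-AAT value was 1.15 to 1.90 with 1 library left out. tRF-3b of Arg-ACG, a fragment of the 3′ end of an arginine tRNA, stood at 511 and 574 CPM in NS-KO D27, against 83.0 and 29.03 CPM in WT D27 (log2 fold change 1.78, SE 0.51, adjusted p = 0.047 from limma), and it was not called once any 1 of the 4 libraries was left out (1.54 to 2.03). Sums of type Other of Phe-GAA (1.17), Thr-AGT (1.12), Arg-TCT (0.96) and Ala-CGC (0.87) also rose, though none of the 4 was called without WT D27 replicate 2 or without NS-KO D27 replicate 2. Fewer than 50 reads lay behind the 3 other calls, which fall outside the rule for named sums and were picked after their values were seen. These were tRF-1 of Gln-CTG (13 and 8 reads in NS-KO D27, against 1 and 0 in WT D27), tRF-5a of His-GTG (5 and 13 reads in NS-KO D27, against 2 and 1 in WT D27) and tRF-3b of Gln-CTG/Gln-TTG (12 and 21 reads in NS-KO D27, against 8 and 6 in WT D27).

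**Figure D3:**
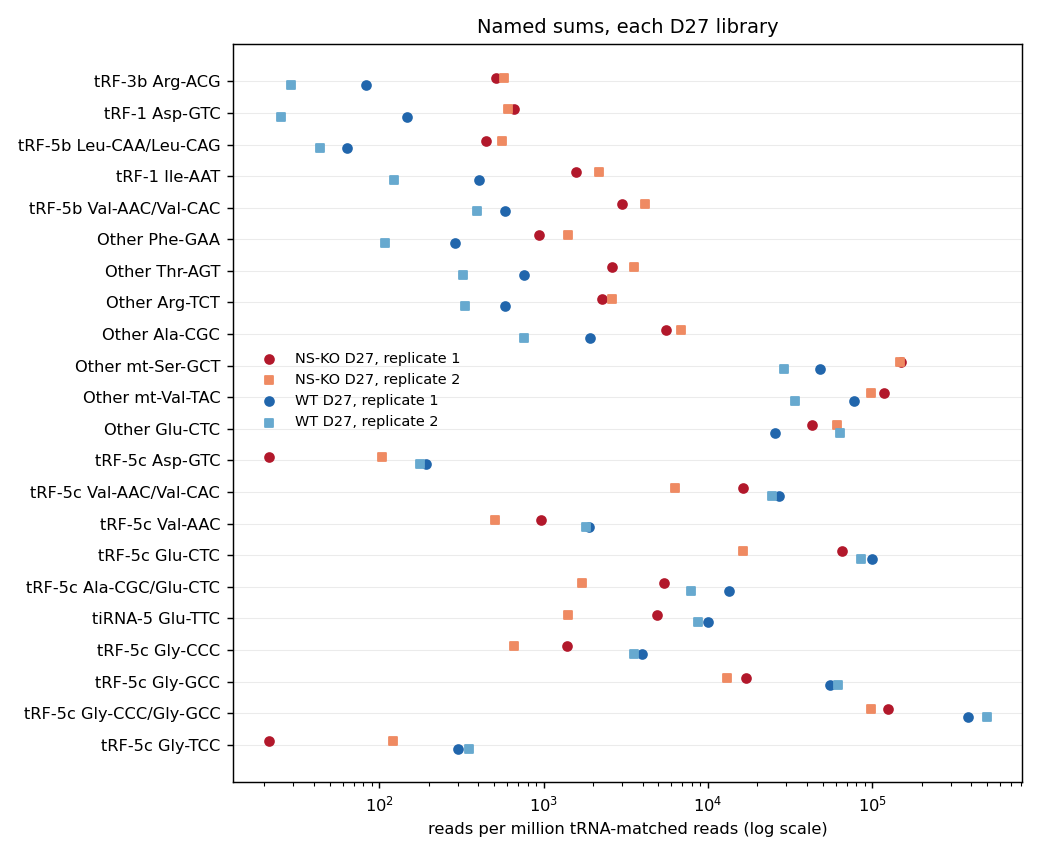
CPM (horizontal axis, log scale) of each named sum in each library, with NS-KO D27 in red tones and WT D27 in blue tones. In the 9 sums at the top both NS-KO points lie right of both WT points, and in the 10 at the bottom left of them. Other Glu-CTC overlaps, at 42982 and 60820 in NS-KO D27 and 25696 and 63393 in WT D27.

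Each count by class stands beside 4.27% higher and 8.9% lower over all sums with TMM, and 41.3% higher and 3.56% lower by library size alone. Among the 5′ classes, 12 of 19 nuclear tRF-5c sums were lower and 0 higher, with a median log2 fold change of −2.60, against −0.05 over all sums. The class was lower under both scalings, with 9 lower and 0 higher and a median of −1.35 by library size alone. Of 13 tiRNA-5 sums, 2 were lower and 0 higher (median −1.61), against 1 lower and 0 higher by library size alone (median −0.18). Of 10 tRF-5b sums, 2 were higher and 0 lower (median 1.07), against 7 and 0 by library size alone (median 2.21), so the 5′ classes did not move as 1 group. The 23 tRF-5a sums had 1 higher and 2 lower (median −0.05), close to the shares over all sums, and 7 higher and 0 lower by library size alone (median 1.12). In the 3′ classes, 5 of 34 tRF-3a sums were lower and 0 higher (median −0.46), but by library size alone 0 were lower and 3 higher (median 0.83). Of 21 tRF-3b sums, 2 were higher and 1 lower (median 0.41), and 10 were higher and 0 lower by library size alone (median 1.57).

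Of 26 tRF-1 sums, 3 were higher and 0 lower, with a median of 0.56, and 19 were higher and 0 lower by library size alone (median 1.87). Of 85 nuclear sums of type Other or tRF-2, 4 were higher and 3 lower (median 0.05), and 47 were higher and 0 lower by library size alone (median 1.45). Of 53 mitochondrial sums, 0 were called in either direction (median −0.03), whereas by library size alone 24 were higher and 0 lower (median 1.29), beside a median of 1.24 over all sums. Of 38 sums that include a tRNA that DNMT2 methylates, 2 were higher and 8 lower (median −0.79). By library size alone 9 were higher and 5 lower (median 0.50), so the balance depends on the scaling. Reads that match at least 1 of these tRNAs made up 21.2% and 18.2% in NS-KO D27, against 51.0% and 63.2% in WT D27. They include the Gly-CCC/Gly-GCC reads, which match Gly-CCC, not on the DNMT2 list, equally well. Of 8 sums that include Leu-CAA, 1 was higher and 1 lower (median −0.20), and by library size alone 3 were higher and 0 lower (median 1.23).

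**Figure D4:**
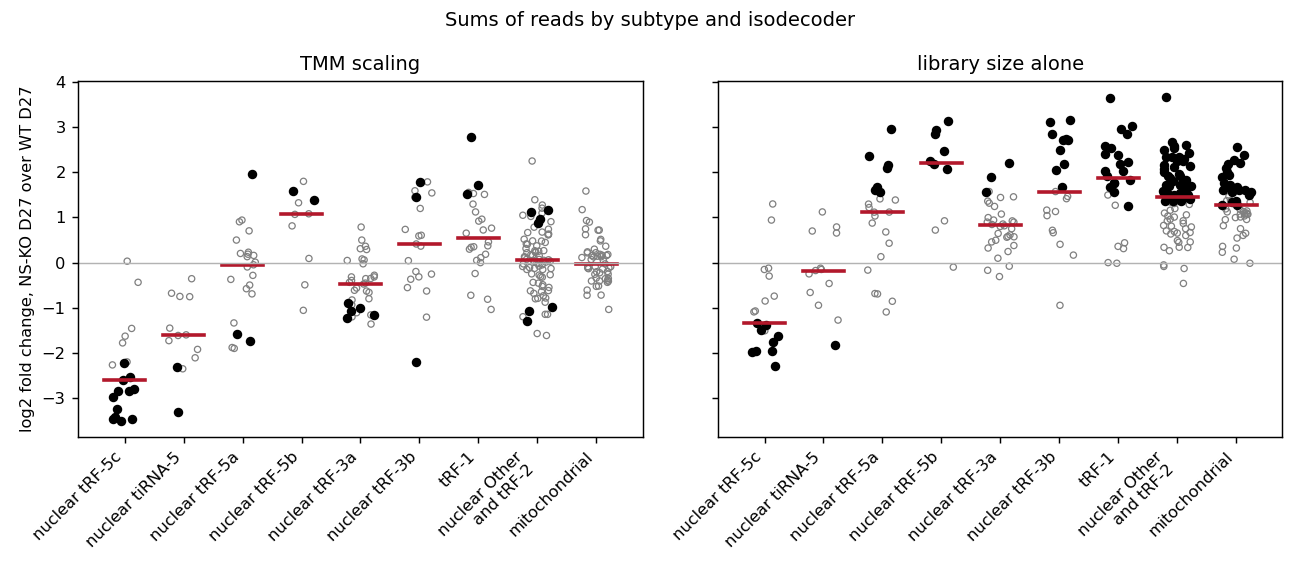
Log2 fold change, NS-KO D27 over WT D27 (vertical axis), of the tested sums by class, with TMM scaling on the left and library size alone on the right. Each point is 1 sum, filled where the adjusted p was under 0.05, and each red bar is the class median. The tRF-5c sums lie low in both panels (medians −2.60 and −1.35), while the mitochondrial median is −0.03 on the left and 1.29 on the right.

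The abundant sums that were not called held mitochondrial and glutamate fragments. Other of mt-Ser-GCT, from the mitochondrial serine tRNA that lacks a D arm, stood at 150618 and 148329 CPM in NS-KO D27, against 47822 and 29114 CPM in WT D27. Its log2 fold change was 0.51 with TMM (SE 0.37, adjusted p = 0.41 from limma) and 2.00 by library size alone (adjusted p = 0.00062). Other of mt-Val-TAC stood at 117536 and 98828 CPM in NS-KO D27, against 77055 and 33709 CPM in WT D27 (log2 fold change −0.41 with TMM and 1.08 by library size alone). Its direction thus depends on the scaling. All mitochondrial reads made up 35.4% and 34.8% in NS-KO D27, against 16.7% and 8.74% in WT D27.

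The mt-Val-TAC reads lay past the tRNA. Trailer reads of this precursor numbered 5383 and 5490 in NS-KO D27, against 11871 and 9057 in WT D27. Nearly all of them, 100% and 99.98% in NS-KO D27 and 99.97% and 99.97% in WT D27, began at base 110 of the precursor sequence, which is position 1094 of the mitochondrial genome. RefSeq places the end of the valine tRNA gene at position 1093 and the start of mt-Rnr2, the gene of the large mitochondrial ribosomal RNA, at 1094. The table lists these reads under Other and not as tRF-1. The reads therefore carry the first bases of that ribosomal RNA gene, as the 21-mer printed above does with 888 and 898 reads in NS-KO D27, against 2177 and 1747 in WT D27.

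For single fragments, 22065 sequences were tested, those that reached 20 CPM in any of the 12 libraries. Since 1 or 2 reads reach this level in NS-KO D27 and more are needed in WT D27, 6147 of them entered through NS-KO D27 alone and 130 through WT D27 alone. In NS-KO D27, 12 were higher and 61 lower, 0.0544% and 0.276% of those tested, with 932 and 1161 at an unadjusted p under 0.05. Of the 61, 7 entered through WT D27 alone. Of the same 61, 34 were tRF-5c of Gly-CCC/Gly-GCC of 28 to 31 nt, with log2 fold changes of −4.50 to −1.80. Only 2 of these 34 matched the tRNA perfectly, and the others carried a mismatch. Fragments of Gly-GCC or Gly-CCC/Gly-GCC made up 70.5% of the 61, against 6.8% of all those tested. The Gly 31-mer had 1181 and 1010 reads in NS-KO D27, against 11900 and 27085 in WT D27 (log2 fold change −3.49, SE 0.53, adjusted p = 0.038 from limma). The Gly 30-mer had 481 and 233 reads in NS-KO D27, against 9685 and 11426 in WT D27 (log2 fold change −4.42, SE 0.61, adjusted p = 0.038 from limma). The form with the mismatched last base was as frequent as the matching 31-mer, with 1241 and 980 reads in NS-KO D27, against 11982 and 31263 in WT D27 (log2 fold change −3.59). Among all tRF-5c reads of Gly-CCC/Gly-GCC, 47.2% and 39.7% had such a last base in NS-KO D27, against 48.6% and 50.4% in WT D27.

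The 12 fragments called higher were all of type Other, and 9 of them had entered the test through NS-KO D27 alone, so that they had to differ and their calls are given as a description. Of the 12, 8 came from Gly-GCC or Gly-CCC/Gly-GCC (66.7%), against 4.94% of the tested fragments of type Other. For 11 of the 12, both WT libraries were at 0 reads and the NS-KO libraries held 2 to 7. A 19-mer of bases 12 to 30 of Gly-CCC/Gly-GCC had 3 and 3 reads in NS-KO D27, against 0 and 0 in WT D27. A 21-mer of bases 55 to 75 of Arg-ACG, in the 3′ part of the tRNA, had 5 and 7 reads in NS-KO D27, against 0 and 0 in WT D27. Calls of single fragments moved with each library, with 0 called without WT D27 replicate 1, 0 without WT D27 replicate 2, 520 without NS-KO D27 replicate 1 and 3762 without NS-KO D27 replicate 2, and with 0 in the D27 libraries alone (257 higher and 810 lower at an unadjusted p under 0.05).

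Most single fragments of interest were not called in the fit with TMM. The mt-Ser 22-mer, which ends with the anticodon, had 1356 and 1562 reads in NS-KO D27, against 712 and 913 in WT D27 (log2 fold change 1.39, SE 0.39, adjusted p = 0.14 from limma). In CPM these are 28868 and 27159 in NS-KO D27, against 4547 and 3313 in WT D27. It was called higher by library size alone (2.85, adjusted p = 0.00019), with median-of-ratios factors (1.68, adjusted p = 0.029), with voom weights (1.39, adjusted p = 0.011) and with library size outside tRF-5c (1.63, adjusted p = 0.043), and in none of the other alternatives run, whose adjusted p-values were 0.053 to 0.82. The mt-Ser 32-mer had 194 and 256 reads in NS-KO D27, against 585 and 485 in WT D27 (log2 fold change −0.71, SE 0.38, adjusted p = 0.40 from limma). Its direction turned by library size alone (0.74), with 4130 and 4451 CPM in NS-KO D27, against 3736 and 1760 CPM in WT D27. The initiator Met tRF-1, the most abundant of its class, had 304 and 536 reads in NS-KO D27, against 727 and 550 in WT D27 (log2 fold change −0.10, SE 0.29, adjusted p = 1.0 from limma), and its sign turned by library size alone (1.35). The Ala tRF-3a had 74 and 100 reads in NS-KO D27, against 327 and 303 in WT D27 (log2 fold change −1.31 with TMM, adjusted p = 0.11 from limma, and 0.13 by library size alone), and was called lower with voom weights (adjusted p = 0.0068) and without NS-KO D27 replicate 2 (adjusted p = 0.0012). The 34-nt tiRNA-5 of Glu-TTC, the leading fragment of its class, had 96 and 33 reads in NS-KO D27, against 708 and 1071 in WT D27 (log2 fold change −3.37, SE 0.75, adjusted p = 0.085 from limma), and was called with voom weights (adjusted p = 0.0021) and with the stricter filter (adjusted p = 0.025). The 23-nt tRF-5b of Val-AAC/Val-CAC, whose sum was called, had 88 and 127 reads in NS-KO D27, against 52 and 62 in WT D27 (log2 fold change 1.41, SE 0.52, adjusted p = 0.31 from limma), and was called with voom weights (adjusted p = 0.030) and with the stricter filter (adjusted p = 0.019).

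Where 5′ fragments ended was compared within each tRNA, since such shares do not depend on how libraries are scaled. For Val-AAC/Val-CAC, whose anticodon begins at base 34, ends at base 23 took 11.8% and 23.98% of 5′ fragments in NS-KO D27, against 1.47% and 1.05% in WT D27. Ends at base 32 took 63.3% and 35.3% in NS-KO D27, against 66.4% and 65.0% in WT D27. Shorter valine fragments, ending in the D arm region before the anticodon arm, thus had a larger share in both NS-KO libraries. limma on the log2 odds of each end, a measure added after the data had been seen, tested 98 ends of 13 isodecoder sets and called 1 higher and 1 lower, 1.02% each. The higher end was base 23 of Val-AAC/Val-CAC (log2 odds ratio 4.02, SE 0.45, adjusted p = 0.00043). The lower end was base 31 of Val-CAC, with 1.55% and 0.610% in NS-KO D27, against 9.25% and 5.90% in WT D27 (log2 odds ratio −2.59, SE 0.49, adjusted p = 0.018). These are shares of only 129 and 164 5′ reads in NS-KO D27, against 389 and 898 in WT D27, so the NS-KO values rest on very few reads. The number of ends called was 19 without NS-KO D27 replicate 1, 1 without NS-KO D27 replicate 2, 1 without WT D27 replicate 1 and 23 without WT D27 replicate 2.

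For Gly-CCC/Gly-GCC, whose level fell most in reads, the ends kept to bases 30 to 32 in both genotypes. Base 31 took 55.5% and 48.1% in NS-KO D27, against 51.1% and 56.3% in WT D27. Base 30 took 19.6% and 9.46% in NS-KO D27, against 36.2% and 20.3% in WT D27. Base 32 took 20.3% and 36.9% in NS-KO D27, against 4.21% and 17.9% in WT D27. The NS-KO libraries lay toward the longer end, with replicates that differed as much as the genotypes, and none of these ends was called. For Glu-CTC, base 31 took 45.9% and 10.4% in NS-KO D27, against 41.7% and 35.7% in WT D27, with the NS-KO libraries on both sides of WT.

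For mt-Ser-GCT, whose anticodon begins at base 20, 5′ fragments ended earlier in NS-KO D27. Ends at bases 19 to 22 took 55.6% and 52.0% in NS-KO D27, against 22.9% and 32.1% in WT D27. Ends at bases 31 to 33 took 15.5% and 16.7% in NS-KO D27, against 34.6% and 29.5% in WT D27. The groups were apart in both windows. No single end passed the test, with log2 odds ratios of 1.89 at base 19 (SE 0.46, adjusted p = 0.059 from limma), 1.06 at base 22 (adjusted p = 0.17) and −1.43 at base 32 (adjusted p = 0.074).

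**Figure D5:**
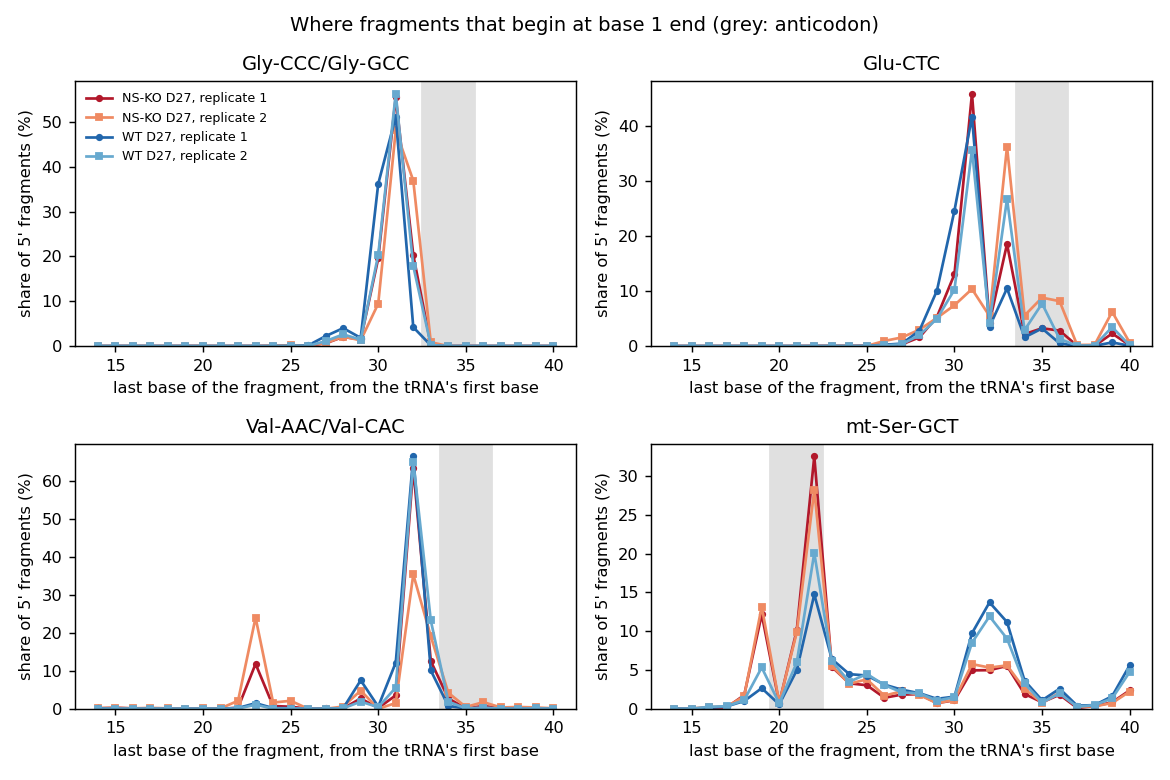
Share of 5′ fragments in percent (vertical axis) that end at each base, counted from the first base of the tRNA (horizontal axis), for 4 isodecoder sets, 1 line per library, with the anticodon in grey. In the valine panel NS-KO D27 has 11.8% and 23.98% at base 23, against 1.47% and 1.05% in WT D27. In the mt-Ser-GCT panel both NS-KO lines are higher at bases 19 and 22 and lower at base 32.

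The tRF-1 pool was led by Met-CAT, which gave 36.1% and 43.4% of tRF-1 reads in NS-KO D27, against 50.9% and 54.5% in WT D27. Thr-CGT gave 19.5% and 10.5% in NS-KO D27, against 9.39% and 7.65% in WT D27, and Arg-ACG gave 18.2% and 20.7% in NS-KO D27, against 19.7% and 18.8% in WT D27. Within the pool Met-CAT was thus lower and Thr-CGT higher in both NS-KO libraries, while Arg-ACG overlapped. The mean tRF-1 length was 20.01 and 18.3 nt in NS-KO D27, against 18.2 and 17.96 nt in WT D27. Reads ending in 4 or more T made up 38.8% and 38.2% of tRF-1 reads in NS-KO D27, against 36.6% and 34.8% in WT D27.

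The study synthesised 67 distinct tRF-1 sequences, picked on differences between the genotypes and between WT D0 and WT D3. Whether the D27 libraries took part in that choice is not stated, so the list is not independent of these samples. The deposited table held 66 of them, 61 were tested, and 0 were called at D27 by limma, with 9 higher and 0 lower at an unadjusted p under 0.05. Of all 830 tRF-1 fragments tested, 0 were called as well. Of all 22065 fragments tested, 932 were higher and 1161 lower at an unadjusted p under 0.05. The median log2 fold change of the 61 was 0.15, against 0.12 over the 830, and by library size alone these medians were 0.61 and 0.58. Together the study's sequences had 115 and 141 reads in NS-KO D27, against 99 and 48 in WT D27. This is 2448 and 2452 CPM in NS-KO D27, against 632 and 174 CPM in WT D27. No read in any D27 library was found for 19 of them. This includes tRF-Gln-CTG-026, the fragment the study followed, with 0 reads in all 4 libraries, which allows up to 63.9 and 52.2 CPM in NS-KO D27 and 19.2 and 10.9 CPM in WT D27 (3 reads of each total, for counting error only). In the other 8 libraries its reads were 5 and 6 in NS-KO D3 and 0 elsewhere.

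The genotype difference at D27 was last set against that of the same genotypes at D0 and D3, to see whether repeated injury changed it. Against D0, limma called 0 of 281 sums, with 15 higher and 16 lower at an unadjusted p under 0.05 and 0 called with voom weights. Among the named sums the log2 fold change of tRF-5c Gly-CCC/Gly-GCC was −3.47 at D27 and −4.21 at D0, and that of tRF-1 Ile-AAT was 1.52 at D27 and 1.88 at D0. A p that misses the threshold does not show that these values were equal. Against D3, 51 sums differed, 10 with a higher and 41 with a lower genotype difference at D27, 3.56% and 14.6% of those tested (median difference −0.17). By library size alone the balance turned, with 70 higher and 17 lower (median difference 1.38).

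With TMM the sums with a lower genotype difference at D27 than at D3 were led by mitochondrial and tRF-5c sums. The median log2 fold change of the 53 mitochondrial sums was −0.03 at D27 and 2.01 at D3, and 26 of them had a lower genotype difference at D27 and 0 a higher one. By library size alone 8 were lower and 1 higher, and the mitochondrial medians were 1.29 at D27 and 1.85 at D3. The size of this contrast thus depends on the scaling. Of 19 nuclear tRF-5c sums, 7 had a lower genotype difference at D27 and 0 a higher one, with medians of −2.60 at D27 and 0.41 at D3. By library size alone 5 were lower and 0 higher, with medians of −1.35 at D27 and 0.13 at D3. tRF-5c of Gly-CCC had a log2 fold change of −3.41 at D27 and 3.49 at D3, so NS-KO livers had less of it than WT livers at D27 and more at D3 (difference −6.91, SE 0.94, adjusted p = 0.0021 from limma). Nuclear 3′ fragments went the other way, since 6 of their 55 sums had a higher genotype difference at D27 and 0 a lower one (30 and 0 by library size alone).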

How the data were processed

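Small RNA of 14 to 40 nt from mouse livers was sequenced after a pretreatment of tRNA ends and modifications. The authors checked reads with FastQC, trimmed adapters with cutadapt and used Bowtie to align them to mature tRNAs and the rest to precursors, allowing 1 mismatch. Tool versions and the genome build are not given in the sources used here. The deposited table holds whole-number read counts of each sequence under every tRNA it matched, and these were not normalised by the authors before deposit, although the authors computed CPM and used edgeR for their own calls. The fragment names and subtypes are those of the deposited table.

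Each sequence was counted once and assigned to the set of isodecoders it matched alike. Because lines of text stand between the reads, the table was not accepted as plain counts, and limma (3.58.1, R 4.3.3) with a trend on log2 CPM took the place of edgeR, as the written plan allowed. Libraries were scaled by TMM (factors of 0.429 to 1.83), with a prior count of 2, 1 mean per group and 6 residual degrees of freedom. Sums needed 15 reads or more in all and, in enough libraries, the CPM that 10 reads make at median library size. Fewer reads met this level in NS-KO D27 than in WT D27, and how many sums passed through NS-KO D27 alone was not counted. Fragments needed 20 CPM or more in any 1 library. Tested sums held 99.8% and tested fragments 95.4% of D27 reads. The scripts were tested on simulated data. Shares, lengths and numbers were compared by exact permutation over libraries. Reads carry no molecular identifiers, so limits on 0 reads (3 reads) cover counting error only. Thinned numbers are means of 20 random copies. The 3′ ends of 5′ fragments were compared by limma on log2 odds in isodecoder sets with at least 100 reads, for ends with at least 2% of 5′ fragments, with 0.5 added to counts.

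Named sums were the 10 called with the largest fold change in each direction and at least 50 D27 reads, and the 6 most abundant. Named fragments were the 6 most abundant called in each direction, the most abundant of each subtype and tRF-Gln-CTG-026, and further sequences were printed as examples of their sums. Some sequences are not reported here. Members, lists and rules were chosen with earlier results of these data known. Alternatives were library size only, median-of-ratios factors, library size outside tRF-5c, voom weights, other filters, perfect matches, the D27 libraries alone, a replicate block and leaving out each library. Gene positions in RefSeq are those of GRCm38.p6. Replicates of different groups shared only a number. Python 3.11.15, numpy 2.4.6, scipy 1.17.1 and pandas 2.3.3 were used.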

Additional observations from a re-analysis of the deposited data

Results flagged for a closer look

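Among the named sums, 6 had a genotype difference at D27 that differed from the genotype difference at D3 by limma's test of the difference itself. Over all 281 sums tested, 3.56% had a higher and 14.6% a lower genotype difference at D27. Most named sums were chosen for a large fold change at D27, which is 1 term of this difference. The choice thus favours a difference from D3, and the 6 are given as a description. Each difference is the log2 fold change, NS-KO over WT, at D27 minus that at D3. tRF-5c of Gly-CCC differed by −6.91 (SE 0.94, adjusted p = 0.0021), with 65 and 38 reads in NS-KO D27, against 618 and 977 in WT D27, and 5899 and 1933 reads in NS-KO D3, against 124 and 582 in WT D3. tRF-5c of Gly-GCC differed by −4.43 (SE 0.90, adjusted p = 0.0075), with 805 and 749 reads in NS-KO D27, against 8632 and 17056 in WT D27. For tRF-5c of Val-AAC the difference was −4.15 (SE 0.70, adjusted p = 0.0033), and for tRF-5c of Ala-CGC/Glu-CTC it was −4.18 (SE 1.19, adjusted p = 0.040). The tRF-1 sum of Asp-GTC differed by −2.86 (SE 0.68, adjusted p = 0.017), being higher in NS-KO at both times with log2 fold changes of 1.71 at D27 and 4.57 at D3. Its difference was −1.28 by library size alone and was not called there (adjusted p = 0.25). The tRF-5b sum of Leu-CAA/Leu-CAG differed by 2.57 (SE 0.49, adjusted p = 0.0050), with 21 and 32 reads in NS-KO D27, against 10 and 12 in WT D27, and 8 and 6 reads in NS-KO D3, against 18 and 12 in WT D3. The other 5 were called by library size alone too, in the same direction. Groups of 2 libraries are too small to be tested for a single library that stands apart. The causes of these differences were not tested.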

How the results depend on the processing

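The differences between group means in tRF-5c, mitochondrial and tRF-1 shares, mean length and number of expressed fragments kept their direction in every alternative run. Among reads outside tRF-5c, however, the differences were 8.30 percentage points for mitochondrial reads and 1.57 for tRF-1, and the groups overlapped in both. Leaving out 1 library gave −50.3 to −40.5 percentage points for tRF-5c, 18.4 to 26.3 for mitochondrial reads and 2.80 to 4.37 for tRF-1, −4.52 to −2.85 nt for mean length and a ratio of 1.97 to 4.69 for expressed fragments. The number of sums called, 37, was 126 by library size only, 0 with the 4 D27 libraries only (37 higher and 44 lower at an unadjusted p under 0.05), 33 with a replicate block, and 0 (without WT D27 replicate 2) to 30 (without WT D27 replicate 1) when 1 library was left out, with 7 without NS-KO D27 replicate 2. Without WT D27 replicate 2, 21 sums were higher and 35 lower at an unadjusted p under 0.05. Of the 19 named sums called, 19 stayed called with median-of-ratios factors and by library size only, 18 with library size outside tRF-5c, 16 with the replicate block, 15 with voom weights, 13 with no filter, 2 without NS-KO D27 replicate 2 and 0 without WT D27 replicate 2. The sums that differed from D3, 51, 10 higher and 41 lower, were 87 by library size only, 70 higher and 17 lower, 48 with the replicate block and 34 to 50 with 1 library left out.

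The number of single fragments called, 73, was the least stable. It was 54 by library size only, 133 with median-of-ratios factors, 798 with voom weights, 302 with the stricter filter, 125 with library size outside tRF-5c, 8 for perfect matches only and 0 with the 4 D27 libraries only or with a replicate block (900 higher and 1144 lower there at an unadjusted p under 0.05), and 0 to 3762 with 1 library left out, the highest without NS-KO D27 replicate 2. The 3′ ends called, 2, were 1 to 23 with 1 library left out, the highest without WT D27 replicate 2, and 2 with the replicate block. The causes were not tested.

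Directions turned by library size only for Other Glu-CTC (0.34), Other mt-Val-TAC (1.08), the 18-nt tRF-3a of Ala-CGC/Ala-TGC (0.13), the 16-nt tRF-1 of Met-CAT (1.35) the 40-nt tiRNA-3 of mt-His-GTG (1.31), the 32-nt fragment of mt-Ser-GCT (0.74) and the 21-nt mt-Val-TAC trailer (0.87), none of them called. The Met-CAT fragment also turned with median-of-ratios factors (0.18), the stricter filter (0.28), library size outside tRF-5c (0.14), without NS-KO D27 replicate 1 (0.23) and without WT D27 replicate 1 (0.14), and the mt-His-GTG fragment with the first 3 of these (0.16, 0.26 and 0.12). The 22-nt tRF-3b of Glu-TTC turned without WT D27 replicate 2 (−0.018), and the 14-nt tRF-2 of Leu-TAG without NS-KO D27 replicate 2 (−0.12) and without WT D27 replicate 2 (−0.65). With 1 library left out, log2 fold changes ranged over −0.018 to 1.03 for the Glu-TTC fragment, −0.44 to 0.23 for the Met-CAT fragment and −0.65 to 1.15 for the Leu-TAG fragment.

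Deviations of same-numbered libraries were correlated by −0.30 to 0.50 over 15 pairs of groups, with 4 above 0.1, and by 0.10 between the D27 groups, so a pairing was not assumed. edgeR and DESeq2 were not run, since the table was not accepted as counts. The NS-KO D27 libraries are shallow, where a single read was worth 21.3 and 17.4 CPM, and 0 reads there do not show absence.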
